A study of Mus musculus with 577 samples.

Results

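The genes described here are 35 genes of glycolysis and pyruvate handling, out of the 22060 protein-coding genes in the count tables of this series. They were taken by gene symbol: glucose transporters (Slc2a1, Slc2a3), monocarboxylate transporters (Slc16a1, Slc16a3, Slc16a7), the enzymes from hexokinase to pyruvate kinase, the lactate dehydrogenases, subunits of the pyruvate dehydrogenase complex and the pyruvate dehydrogenase kinases. All 35 were found in every gene table.

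The series measured mRNA in 577 libraries, which were made mostly from single cells cut by laser capture microdissection (LCM) out of frozen sections. The gene tables held single oocytes, 330 single granulosa cells and 81 mouse embryonic stem cells (mESCs), together with 16 sections from 8 oocytes, 14 pools of 10 granulosa cells, 7 bulk granulosa samples and 3 granulosa cells with a mixed profile. A further 15 single cells had counts per exon. The ovaries came from 8-week-old female mice, and no genotype or hormone treatment distinguished the groups. Oocytes were labelled by follicle as primary, secondary-antral or fully grown, and granulosa cells were labelled neighboring or non-neighboring with respect to the oocyte. The mESCs grew in 2i-LIF medium, which holds them in a naive state with GSK3 and MEK inhibitors and LIF, and were collected either fresh after dissociation or by LCM from a frozen cell block.

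A group of 6 sets of libraries held both oocytes and granulosa cells. DRaqL is the lysis step of the study for cells caught from sections, and it was followed by SC3-seq, a single-cell method that reads the 3′ ends of transcripts, in the largest set (44 oocytes, 57 granulosa cells, alcohol-fixed sections). The others were SMART-Seq v4 without DRaqL (18 and 34 cells), SMART-Seq v4 with DRaqL (15 and 39), sections fixed in formalin for 24 h and amplified by Smart-seq2 after DRaqL and protease (12 and 24), and both ovaries of a single proestrus mouse. One ovary of that mouse was frozen for LCM with DRaqL-Smart-seq2 (8 and 70), and from the other, fully grown cumulus–oocyte complexes were dissociated in dibutyryl-cAMP for Smart-seq2 (14 and 35). In the dissociated set, by the paper, neighboring cells were those attached to the oocyte and non-neighboring cells other granulosa cells of the complexes, not positions in a section. LCM-seq (37 cells) and DRaqL-Smart-seq2 (34 cells) were run on granulosa cells alone. Labels did not name the mouse of a single cell. Each group of cells was therefore handled as 1 sample, described by its mean, standard deviation (SD) over cells and range, without a test. Only the pools and the bulk samples were tested, and labels did not say that these came from separate animals, so their p-values measure the spread between libraries.

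Glycolysis converts glucose to pyruvate in the cytosol. Lactate dehydrogenase then interconverts pyruvate and lactate, or the pyruvate dehydrogenase complex feeds pyruvate into mitochondrial respiration, and the pyruvate dehydrogenase kinases switch that complex off. Mammalian oocytes use glucose poorly and are known to depend on pyruvate supplied by the surrounding granulosa cells, whereas naive and primed pluripotent cells and proliferating follicle cells are active in glycolysis.

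Pkm makes the last glycolytic enzyme, pyruvate kinase, in 2 forms that differ by a single exon, and these exons are shown because the reads told them apart. They are mutually exclusive and lie next to each other on the + strand of GRCm38, both as exon 9 of their transcripts. The PKM1 exon, of transcript Pkm-202, is at chr9:59675029-59675195, and the PKM2 exon, of Pkm-201, is at chr9:59675568-59675734. Both are coding and 167 bases long. Capitals mark the 64 positions at which they differ, which leaves 61.7% identity.
PKM1 exon: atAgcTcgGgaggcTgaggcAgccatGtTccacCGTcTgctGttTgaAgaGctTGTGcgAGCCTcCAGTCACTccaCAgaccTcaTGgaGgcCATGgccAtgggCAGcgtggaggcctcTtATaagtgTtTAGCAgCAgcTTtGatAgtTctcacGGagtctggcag
PKM2 exon: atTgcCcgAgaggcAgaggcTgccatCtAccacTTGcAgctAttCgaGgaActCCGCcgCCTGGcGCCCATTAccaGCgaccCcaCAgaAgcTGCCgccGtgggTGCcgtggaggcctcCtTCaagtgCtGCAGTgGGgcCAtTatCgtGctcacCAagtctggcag

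Ldha and Ldhb encode the M and H subunits of lactate dehydrogenase, with more Ldha reads in granulosa cells than in oocytes and more Ldhb reads in oocytes. Ldhb was nonetheless the member with most reads in granulosa cells of the DRaqL-SC3-seq set too, at means of 1053 RPM in neighboring and 1091 RPM in non-neighboring cells. The 250 bases before their RefSeq start sites (GRCm38.p6) are shown with each ACGTG, the core of the hypoxia response element, in capitals on either strand. The Ldha window at chr7:46845554-46845803 (+) held it in 3 places. In the first and the second of these it is part of CACGTG, which reads the same on both strands. The Ldhb window at chr6:142507958-142508207 (−) held none, and neither did a second, more downstream Ldha start site. Among 300-base windows that also take in the first 50 bases of the transcript, 19.6% of all 32851 windows held the motif, against 22 of the 52 windows (42.3%) of the 33 members in the table. This is a description of letters only.
Ldha: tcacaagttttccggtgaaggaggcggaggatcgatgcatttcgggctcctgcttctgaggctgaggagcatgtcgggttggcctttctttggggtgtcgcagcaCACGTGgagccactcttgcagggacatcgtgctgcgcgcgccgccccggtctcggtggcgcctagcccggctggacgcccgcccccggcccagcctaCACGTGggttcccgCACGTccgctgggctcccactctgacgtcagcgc
Ldhb: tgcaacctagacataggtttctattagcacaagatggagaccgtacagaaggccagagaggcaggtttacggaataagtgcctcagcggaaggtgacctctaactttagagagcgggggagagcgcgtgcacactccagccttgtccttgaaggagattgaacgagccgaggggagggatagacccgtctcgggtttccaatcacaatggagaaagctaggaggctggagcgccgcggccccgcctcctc

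Levels are reads normalized to library total over protein-coding genes (RPM), from reads counted within 10 kb of the 3′ ends of genes, and log2(RPM+1) of them. They are not corrected for length, so that a gene is compared between cells and not with other genes, and shares between 2 genes are shares of reads. Library totals in the gene tables ran from 12748 to 17506401 reads. Marker genes fitted the labels: the 14 oocyte markers summed to a median of 9447 RPM in oocytes of primary follicles and 36922 RPM in those of secondary-antral follicles of the DRaqL-SC3-seq set, the 12 granulosa markers to 8707 and 8801 RPM in its neighboring and non-neighboring granulosa cells, and the 5 pluripotency markers to 1524 and 1499 RPM in fresh and LCM mESCs. Neighboring granulosa cells, however, also held oocyte transcripts, with a median of 2943 RPM for the oocyte markers against 64.2 RPM in non-neighboring cells. No duplicated library was found.

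The 35 genes took a larger share of the mRNA of mESCs than of oocytes. Their summed level was 13707 ± 3159 RPM (SD, n = 45) in fresh and 16072 ± 2833 RPM (n = 36) in LCM mESCs. In DRaqL-SC3-seq oocytes it was 5528 ± 944 RPM in primary (n = 14) and 7617 ± 1968 RPM in secondary-antral follicles (n = 30). Single granulosa cells varied so widely, at 6646 ± 6109 RPM (n = 31) for neighboring and 5881 ± 5357 RPM (n = 26) for non-neighboring cells, that they overlapped both. Most of the sum in oocytes was a single gene. Ldhb alone took 55.6% of it in primary and 77.4% in secondary-antral follicles, and 83.8% and 85.2% in LCM and dissociated oocytes of the proestrus mouse. In mESCs the leading member was Eno1, the major enolase, with 17.8% (fresh) and 17.1% (LCM) of the sum, and Ldhb took 14.5% and 13%. Slc16a3, Slc16a7, Pfkfb4, Aldoc, Pgam2, Eno2, Eno3 and Pdk4 were at mean levels of at most 2.00 on the log2(RPM+1) scale in the mESCs, oocytes and single granulosa cells of DRaqL-SC3-seq. In bulk granulosa samples, Eno3, the muscle enolase, was at 4.42, Pdk4 at 2.59, Slc16a3 at 2.41 and Pfkfb4 at 2.25.

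**Figure D1:**
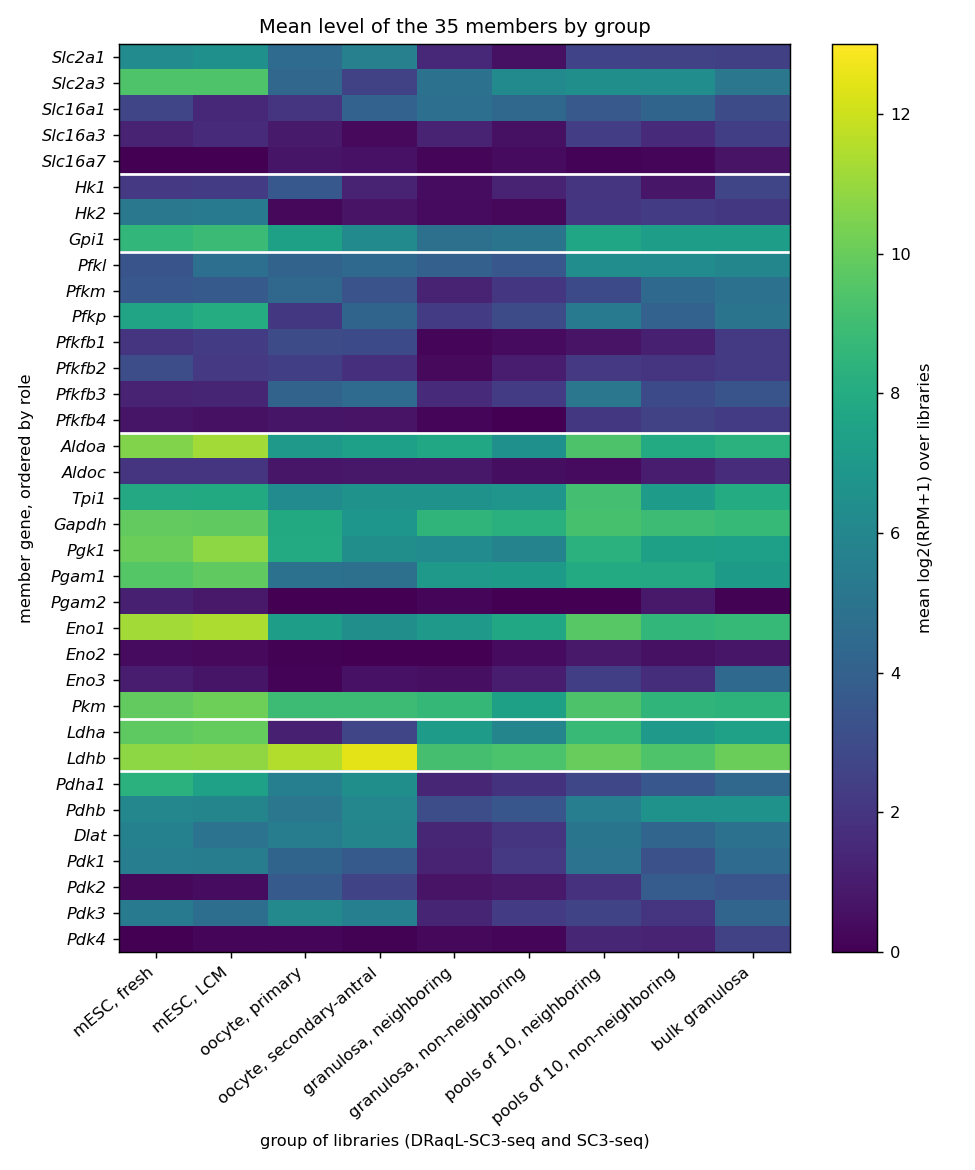
Mean log2(RPM+1) of the 35 genes (rows, ordered by role) in mESCs, oocytes and single granulosa cells of the DRaqL-SC3-seq tables and in granulosa pools and bulk samples (columns), with the colour scale giving the level. Ldha is at 1.17 and 2.69 in the oocyte columns against 9.78 and 9.92 in the mESC columns, while Ldhb is at 11.50 and 12.46 in oocytes.

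Oocytes and granulosa cells were first compared by their differences in mean log2(RPM+1), with a gene called when the difference was at least 1 and the mean level of both groups at least 2. Where sets were counted together, the difference had to reach 1 in each and the mean level was averaged over the sets. Slc2a1, Pfkm, Ldhb, Pdha1 and Pdk3 were higher in oocytes by at least 1 in all 6 sets. These were 5 of the 22 members tested, a smaller share than the 39.8% of all 9732 genes so called. The mean level of Pfkm was under 2 in SMART-Seq v4 with DRaqL and in LCM cells of the proestrus mouse. With a mean level of 2 required in every set, the other 4 were called, of 15 members tested (42.6% of all genes). No member was higher in granulosa cells in all 6 sets, and the share of all genes was 2.1%. The median difference was 0.38 over the members tested and 1.80 over all genes. A median of 28 members had reads in DRaqL-SC3-seq oocytes, against 17 in neighboring and 18 in non-neighboring granulosa cells, and a difference of means of log2 values counts cells without a read at 0.

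In DRaqL-SC3-seq, 10 of 22 members were higher in oocytes and 5 in granulosa cells (76.4% and 5.87% of all genes). In SMART-Seq v4 without DRaqL these were 15 and 1 of 22 (77.6% and 4.66%), and with DRaqL 6 and 5 of 23 (54.1% and 11.7%). After formalin they were 9 and 3 of 24 (54.3% and 9.67%). In the proestrus mouse they were 7 and 3 of 18 for LCM cells (68.4% and 10.3%) and 7 and 11 of 20 for dissociated cells (65.4% and 13.5%). In each set a smaller share of the members than of all genes was higher in oocytes. By the library titles, oocytes and granulosa cells were in separate library pools (cDNAs prepared together) in the SMART-Seq v4 and formalin sets. In the proestrus mouse, 2 LCM and 4 dissociated oocytes shared a library pool with granulosa cells. Cell type and library pool can therefore hardly be told apart in these sets. The paper also names a separate PCR program for oocytes in DRaqL-SC3-seq and DRaqL-Smart-seq2, which cannot be told apart from cell type.

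The lactate dehydrogenase genes differed between the cell types in opposite directions. Ldhb was at 1624, 4573 and 9470 RPM (lowest, median and highest) in the 44 DRaqL-SC3-seq oocytes and at 4.34, 788 and 4472 RPM in the 57 granulosa cells. The ranges overlapped, but the lowest oocyte lay above the granulosa median. Its differences were 2.94, 3.06, 3.39 and 2.92 in DRaqL-SC3-seq, SMART-Seq v4 without and with DRaqL and formalin, and 5.30 and 3.75 in LCM and dissociated cells of the proestrus mouse. Ldha, whose subunit favours lactate production, went the opposite way. It was at 0, 3.42 and 62.5 RPM in the 44 oocytes, 40 of which had a read, and at 0, 156 and 4301 RPM in the granulosa cells, 53 of which had one. In dissociated cells the groups were nearly apart, with oocytes at 0, 4.26 and 28.97 RPM and granulosa cells at 19.2, 960 and 4483 RPM. The differences of Ldha, in the same order of sets, were −4.39, −1.61, −3.01, −0.85, −3.70 and −7.32. The smallest, after formalin, was under the limit of 1, and there the medians were 22.1 RPM in oocytes and 33.1 RPM in granulosa cells.

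Within a cell, the share of Ldha in the reads of Ldha and Ldhb cancels depth and the RNA content of the cell. It was 0.172 ± 0.285% (SD, n = 44) in DRaqL-SC3-seq oocytes, with a highest value of 1.46%, and 25.8 ± 29.3% (n = 57) in granulosa cells. Granulosa cells spread from 0 to 99.8% around a median of 18.2%, so that some read like oocytes. In the other sets the oocyte means were 0.506% (SMART-Seq v4), 1.72% (with DRaqL), 3.73% (formalin), 0.340% (LCM) and 0.208% (dissociated). The corresponding granulosa means were 24.5, 34.2, 26, 40.2 and 65.95%, above the oocyte mean in each set. The highest oocyte, at 24.4%, was a formalin-fixed oocyte of a primary follicle. In the mESCs the share was 35.8 ± 18.0% (n = 81), and in bulk granulosa samples 18.0 ± 12.8% (n = 7). When granulosa cells with many oocyte transcripts (over 10% of the median oocyte level for the markers) were left out, the DRaqL-SC3-seq granulosa mean was 29.3% (n = 41).

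**Figure D2:**
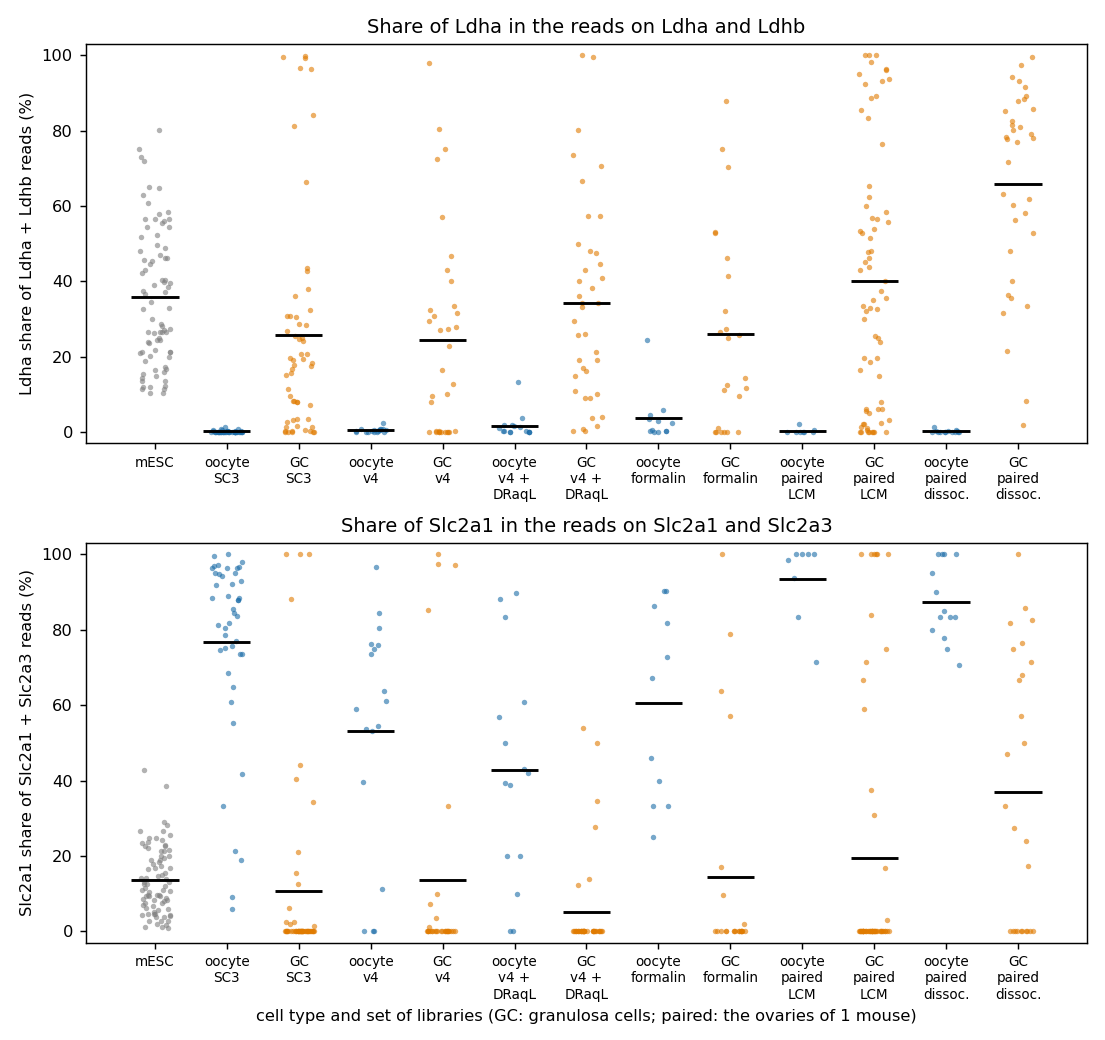
Share of Ldha in Ldha plus Ldhb reads and of Slc2a1 in Slc2a1 plus Slc2a3 reads (vertical axes, percent) for every library by group, with each point a library and the black line the mean. Oocytes of the DRaqL-SC3-seq set lie at or below 1.46% for Ldha, while granulosa cells spread from 0 to 99.8%.

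Glucose transporters divided the cells too. Slc2a1, the basal glucose transporter GLUT1, was at 3.84, 44.5 and 152 RPM in DRaqL-SC3-seq oocytes and had reads in all 44. It had reads in only 15 of the 57 granulosa cells, at 0, 0 and 199 RPM. Its differences were 4.26, 3.10, 2.85, 2.89, 4.05 and 2.37 over the 6 sets. Granulosa cells with a read were 9 of 34, 6 of 39, 7 of 24, 15 of 70 and 16 of 35 in the other sets. Mean RPM were 49.7, 29.9, 17.4, 42.2, 38.3 and 33.6 in oocytes against 13.6, 22.1, 5.69, 15.5, 10.8 and 48.2 in granulosa cells, so that dissociated granulosa cells had the higher mean RPM. Slc2a3, the high-affinity transporter GLUT3, was lower in oocytes in each set, by differences of −2.37, −0.76, −1.29, −1.42, −1.95 and −1.69. Its median in DRaqL-SC3-seq was 8.46 RPM in oocytes and 89.9 RPM in granulosa cells. The share of Slc2a1 in the reads of both genes was 76.8 ± 25.0% in DRaqL-SC3-seq oocytes (n = 44) and 10.6 ± 26.6% in the 54 granulosa cells with reads of either gene. In the other sets oocyte means were 42.8 to 93.4% and granulosa means 5.05 to 37.1%. Slc16a1, the lactate and pyruvate transporter MCT1, had no single direction, with differences of −1.18, 1.87, −0.58, −0.90, 0.99 and −0.57. Slc16a3 (MCT4), a lactate exporter, and Slc16a7 (MCT2), a high-affinity pyruvate transporter, were low in both cell types of DRaqL-SC3-seq.

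At the entry of pyruvate into mitochondria, Pdha1 and Pdk3 were higher in oocytes in all 6 sets, as were 39.8% of all genes. Pdha1, the catalytic E1 alpha subunit of pyruvate dehydrogenase, was at 1.97, 81.6 and 175 RPM in DRaqL-SC3-seq oocytes and at 0, 0 and 384 RPM in granulosa cells, of which 21 of 57 had a read. Its differences were 4.58, 4.57, 2.63, 2.80, 4.99 and 4.11. Pdk3, a kinase that inhibits the complex, was at a median of 52.03 RPM in oocytes and 1.60 RPM in granulosa cells, and its differences were 3.98, 4.53, 3.08, 2.74, 2.92 and 2.84. Both an activity subunit and an inhibitor of the complex were thus on the oocyte side. Pdhb, the E1 beta subunit, had differences of 2.49, 2.097, 0.58, 1.21, 0.27 and 1.45, and Dlat, the E2 subunit, of 4.12, 2.86, 1.29, 0.79, 1.27 and 2.73, positive in every set but not always past 1. The median differences over all genes tested were 2.33, 2.38, 1.19, 1.17, 2.07 and 2.00 in these sets. Of the reads of the 4 kinase genes, Pdk3 took 55.7% in primary and 66.7% in secondary-antral oocytes of DRaqL-SC3-seq and 39.7% in its granulosa cells. In dissociated cells Pdk3 took 85.9% in oocytes and 32.5% in granulosa cells, where Pdk4 took 26.4%.

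The enzymes from aldolase to pyruvate kinase had no direction that held over the sets. Pgam1, phosphoglycerate mutase, had differences of −2.22, 0.37, −2.25, −0.86, −1.88 and −4.74, and Gapdh of −1.23, 0.20, −1.40, −0.08, −0.92 and −3.79. Pgk1, by contrast, had differences of 0.84, 2.70, −0.41, −1.08, 0.75 and −2.81, and Pkm of 0.82, 1.03, 0.39, 1.06, 2.02 and −1.09. Eno1 was higher in oocytes of SMART-Seq v4 without DRaqL (1.34) and lower in dissociated ones (−5.11). Pfkm, the muscle-type phosphofructokinase, had differences of 1.1595 to 2.05 over the 6 sets. It also shows how much the scale matters. Its mean RPM in DRaqL-SC3-seq was 19.5 in oocytes (reads in 42 of 44) and 36.2 in granulosa cells (reads in 20 of 57), so that its log2 ratio of mean RPM was below 0. On that ratio Ldhb (2.22 to 4.08) and Pdha1 (1.09 to 2.39) were higher in oocytes in all 6 sets, and Ldha (−7.06 to −1.79) was lower in all 6, together with Slc2a3, Slc16a1 and Tpi1. The share of all genes on that ratio is not given here, so that these do not set the members apart from other genes. Gapdh, Pgk1, Eno1, Aldoa, Pgam1, Ldha and Tpi1 have processed pseudogenes, and reads could have been split with these.

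**Figure D3:**
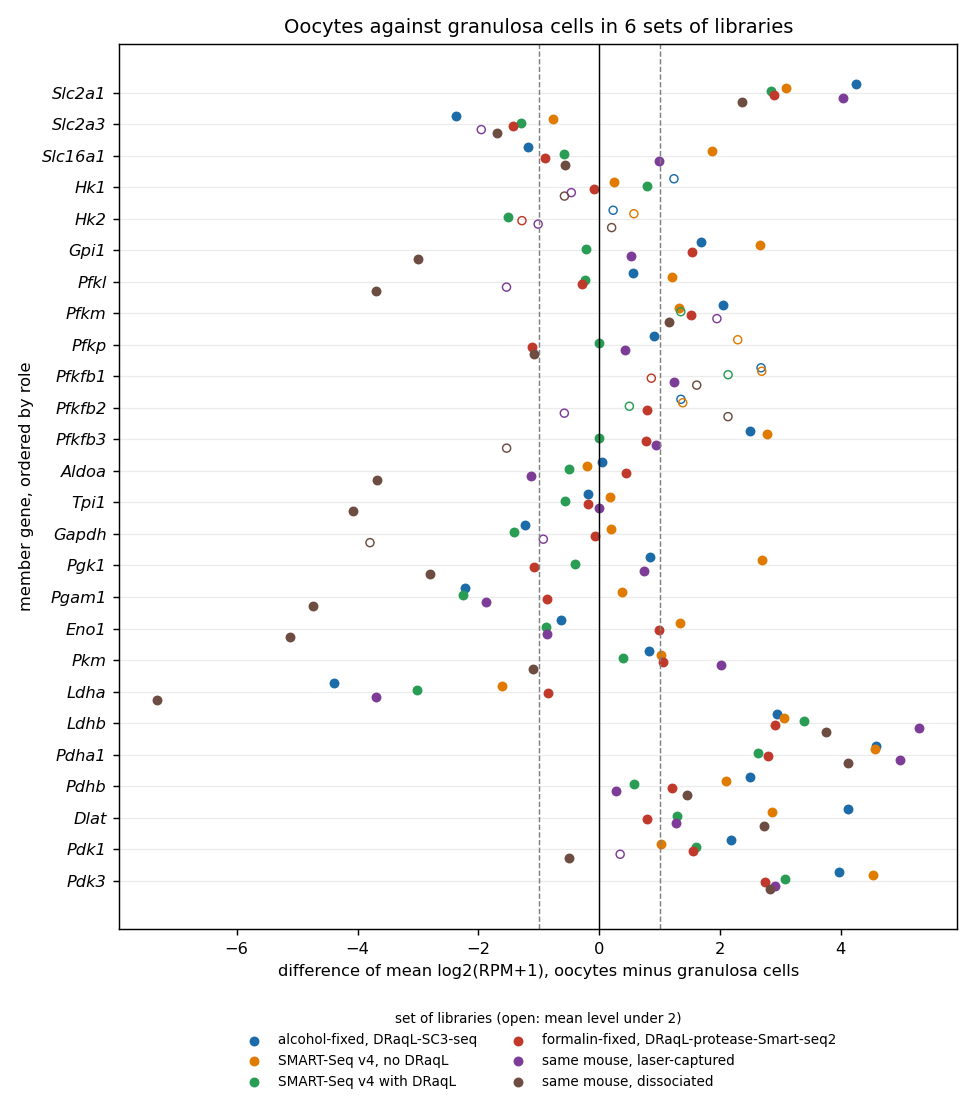
Difference of mean log2(RPM+1), oocytes minus granulosa cells (horizontal axis), for each member (rows) in the 6 sets (colours), with open points for a mean level under 2 and dashed lines at 1 and −1. The 6 points lie to the right of the line at 1 for Slc2a1, Pfkm, Ldhb, Pdha1 and Pdk3, and to the left of 0 for Ldha and Slc2a3.

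RPM are relative to the RNA of each cell. Scaling to added ERCC RNA was done in 3 of the sets. Median ratios of gene reads to ERCC reads in oocytes were 19.6 (SMART-Seq v4), 11.1 (with DRaqL) and 17.3 (formalin) times those of granulosa cells. Means of log2 values shifted by 4.56, 3.65 and 3.10 in favour of oocytes when scaled to ERCC reads. On that scale, 22 members in place of 6 were higher in oocytes by at least 1 in all 3 sets, and none was higher in granulosa cells. The shift applies to all genes and is not particular to the members, and the share of all genes so called is not given here. On the ERCC scale Ldha was 2.63, 0.26 and 1.86 higher per oocyte library than per granulosa library. In these 3 sets its lower level above is thus a share of the mRNA and not an amount per library. The libraries were pieces cut from sections, so that amounts per whole cell are not known. This scaling was added after the data were seen.

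Of the 50 other genes of the pathway on a fixed list, 14 of the 31 tested were higher in oocytes in all 6 sets, a share near the 39.8% of all genes, and none in granulosa cells. The largest differences were those of Bpgm (4.42 to 7.27), which makes 2,3-bisphosphoglycerate, G6pdx (4.28 to 6.18), which opens the pentose phosphate pathway, and Ldhd (4.23 to 5.70), a D-lactate dehydrogenase.

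Between oocytes of primary and secondary-antral follicles, Slc2a1 and Pfkp were higher at the later stage and Hk1 at the earlier stage by at least 1 in all 4 sets that held both stages. These were 2 of 26 members against 14% of all genes, and 1 of 26 against 4.31%. In SMART-Seq v4 with and without DRaqL, stage mostly followed the library pool in the titles, so that they can hardly be told apart there. The formalin-fixed oocytes of the different stages shared a library pool. The mean level of Pfkp was under 2 in SMART-Seq v4 with DRaqL. With a mean level of 2 required in every set, Slc2a1 alone was higher and Hk1 alone lower at the later stage, of 22 members tested (14.3% and 4.38% of all genes). Slc2a1 was at 0, 13.02 and 25.2 RPM (lowest, median and highest) in primary and at 17.5, 43.3 and 65.6 RPM in secondary-antral follicles of SMART-Seq v4. In the DRaqL-SC3-seq set it was at 3.84, 20.1 and 152 against 17.8, 49.1 and 127 RPM. The groups overlapped in both, and its differences were 1.08, 2.85, 1.99 and 1.83 in DRaqL-SC3-seq, SMART-Seq v4 without and with DRaqL, and formalin.

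Pfkp, the platelet-type phosphofructokinase, was at mean levels of 2.08 in DRaqL-SC3-seq and 0.55 to 0.84 in the other sets on the log2(RPM+1) scale in primary follicles, against 3.17 to 4.21 at the later stage. It was at 0, 0 and 2.18 RPM in primary follicles of SMART-Seq v4, with reads in 3 of 7 oocytes, and at 0, 21.1 and 43.8 RPM in secondary-antral follicles, with reads in 10 of 11. The 5 formalin-fixed oocytes of primary follicles had 1.08, 1.00, 0, 0 and 3.37 RPM, against 2.13, 21.97 and 79.4 RPM in the 7 later ones, so that only the highest primary oocyte reached into the later group. The differences were 2.13, 3.54, 2.62 and 3.25. Pfkp took 5.26% of the reads of the 3 phosphofructokinase genes in primary and 40.4% in secondary-antral oocytes of DRaqL-SC3-seq.

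Hk1, the hexokinase that starts glycolysis in most tissues, was on the side of the earlier stage. With DRaqL in SMART-Seq v4 it was at 17.1, 80.1 and 119 RPM in primary and at 0, 1.07 and 3.22 RPM in secondary-antral follicles, with no overlap. After formalin the primary oocytes had 3.24, 57.6, 31.7, 17.03 and 20.2 RPM, and the later ones 0, 0 and 5.13 RPM. In SMART-Seq v4 without DRaqL, by contrast, the ranges of 0 to 19.2 and 0 to 20.4 RPM overlapped fully. The differences were −2.29, −1.07, −5.01 and −3.61. Hk2, the inducible hexokinase, had no read in primary oocytes of the SMART-Seq v4 and formalin sets and was at mean levels of 0.71, 2.93, 2.56 and 1.56 at the later stage, with differences of 0.44, 2.93, 2.56 and 1.56. It was not called, since the mean level of both stages together was under 2. Hk1 took 99.2% of Hk1 and Hk2 reads in primary and 75.1% in secondary-antral oocytes of DRaqL-SC3-seq, and 0.0% in dissociated grown oocytes.

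Ldhb, already the leading member, was higher at the later stage by 0.96, 1.23, 1.56 and 1.51. In SMART-Seq v4 without DRaqL the primary oocytes were at 866, 2556 and 2658 RPM and the later ones at 2970, 4583 and 6889 RPM, with no overlap. With DRaqL they did not overlap either, whereas in DRaqL-SC3-seq and after formalin they did. Ldha stayed low at both stages, with medians of 0.755 and 5.69 RPM in DRaqL-SC3-seq. Gpi1, the isomerase after hexokinase, and Gapdh were lower at the later stage, by −1.17, −0.81, −1.24 and −1.84 for Gpi1 and −1.09, −2.10, −1.82 and −0.89 for Gapdh. Pdk1 was lower as well (−0.48, −2.17, −4.01 and −1.64), while Pkm differed by −0.34 to 0.50. Slc16a1 differed by 2.09, 1.12, 3.38 and 0.84.

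The share of Slc2a1 in Slc2a1 and Slc2a3 reads was higher at the later stage in each set, at 53.8 ± 31.1% in primary (n = 14) and 87.6 ± 10.8% in secondary-antral follicles (n = 30) of DRaqL-SC3-seq. It was 31.7 and 66.9% in SMART-Seq v4, 25.4 and 54.3% with DRaqL, and 44.4 and 74.1% after formalin. The sections of 8 secondary-antral oocytes had 94.1 ± 4.81% (n = 16). The counts of members higher and lower at the later stage were 3 and 7 of 25 in DRaqL-SC3-seq (33.3% and 15.3% of all genes), 7 and 6 of 26 in SMART-Seq v4 (31.1% and 16.9%), 5 and 7 of 25 with DRaqL (35% and 22.2%), and 5 and 6 of 24 after formalin (26.6% and 25.5%). Leaving out replicate 4 of the formalin-fixed primary oocytes gave 8 in place of 5 higher after formalin. The median difference over all 4 sets was −0.30 for the members tested and 0.24 for all genes. Of the other genes of the pathway, 8 of 34 were higher at the later stage in all 4 sets (14% of all genes) and none lower, led by Ldhc (3.17 to 5.91), Me1 (3.72 to 5.01) and Slc16a10 (2.67 to 4.98).

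**Figure D4:**
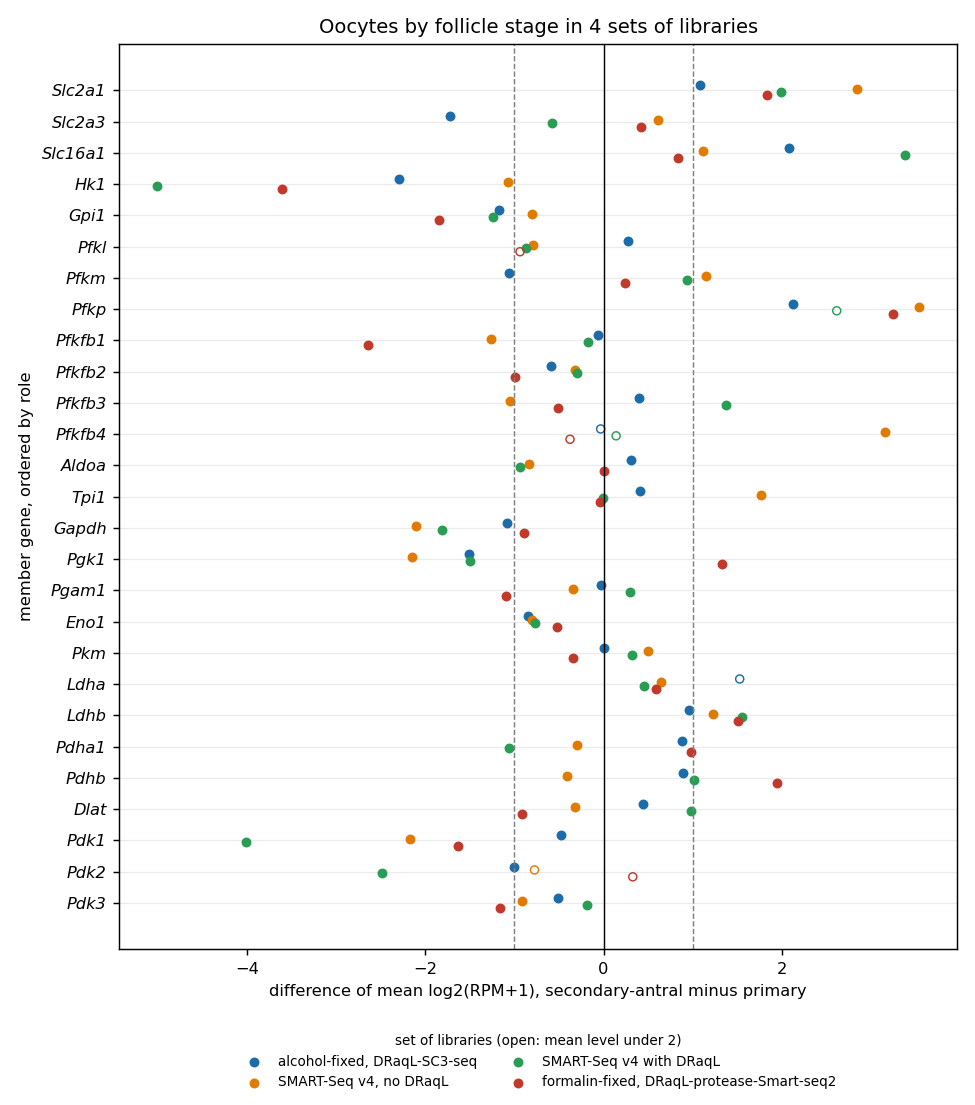
Difference of mean log2(RPM+1), secondary-antral minus primary (horizontal axis), for each member (rows) in 4 sets of oocytes (colours), with open points for a mean level under 2 and dashed lines at 1 and −1. Slc2a1 and Pfkp lie to the right of 1 and Hk1 to the left of −1 in all 4 sets.

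Sections cut from the same 8 oocytes gave the error of a level. Between the pair of sections of an oocyte, the SD of log2(RPM+1) was 0.16 for Ldhb, 0.24 for Pkm, 0.34 for Aldoa and 0.44 for Slc2a1. It was 1.12 for Hk1, 1.04 for Pfkp and 1.67 for Ldha. Between oocytes, the SD of Ldhb was 0.47 over the means of the sections, and 0.36 to 1.09 within the stages of the 4 sets, beside stage differences of 0.96 to 1.56. By the error between sections, a single value of Hk1, Pfkp or Ldha was known to about a log2 unit or worse.

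Granulosa cells neighboring the oocyte had more reads of the members in sum than non-neighboring ones in each of the 8 single-cell sets, by ratios of means of 1.08 to 1.96. The ratios of medians were 0.93 to 2.04, above 1 in 7 of 8. The difference was smaller than the SD over neighboring cells in 5 of 8 sets. The ratio was 1.13 in DRaqL-SC3-seq, 1.19 in SMART-Seq v4, 1.40 with DRaqL, 1.77 after formalin, 1.96 and 1.08 in LCM and dissociated cells of the proestrus mouse, 1.75 in LCM-seq and 1.74 in DRaqL-Smart-seq2. Without Ldhb it was above 1 in 7 of 8 sets, and 0.960 in SMART-Seq v4. No member alone was called in all 8 sets in either direction, among 19 tested and against 0.232% of all genes higher and 0.0257% lower, and none of the 21 other genes tested was either. Oocyte markers moved with position in the same libraries, with medians of 157 to 2943 RPM in neighboring and 5.00 to 155 RPM in non-neighboring cells, with none of the 14 markers at 0 in all cells of a neighboring group and up to 3 of them at 0 in all cells of a non-neighboring group. Their medians were close only in dissociated cells (157 and 155 RPM). Even there, 3 of 14 neighboring and 0 of 21 non-neighboring cells were rich in oocyte markers. The paper likewise reports mixed profiles more often among the attached cells of this set. Without the granulosa cells rich in oocyte markers, the ratios of means were 1.32, 1.17, 1.39, 1.62, 1.52 and 1.13 in the 6 sets with oocytes. The part of the remaining oocyte transcripts was not tested. Position also followed the IL number of the library titles, taken as the in-line index that marks a cell within its library pool. This held in LCM-seq, DRaqL-Smart-seq2, the formalin set and SMART-Seq v4 with and without DRaqL. Neighboring cells there had the lower and non-neighboring cells the higher numbers, so that index and position cannot be told apart.

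Of the 19 members tested, Pgk1 and Pdhb had the same sign in all 8 sets and Pfkp, Pkm and Ldha in 7. The share of all genes with such signs is not given here, so that these counts do not set the members apart from other genes. Pgk1, phosphoglycerate kinase, was higher in neighboring cells in 8 of 8 sets, by 0.48, 1.05, 2.23, 1.29, 1.11, 0.02, 0.90 and 0.96 in the order above. Pkm was higher in 7 of 8, by −0.34 in dissociated cells and by 0.66 to 1.60 in the others. Ldha was higher in 7 of 8 too, by 1.31, −0.73, 1.06, 4.81, 1.60, 0.41, 1.20 and 2.03. After formalin, where it differed most, the share of Ldha in Ldha and Ldhb reads was 41.03 ± 26.3% in 12 neighboring and 10.97 ± 16.5% in 12 non-neighboring cells. In the DRaqL-SC3-seq set the shares were 28.4 ± 28.6% (n = 31) and 22.7 ± 30.3% (n = 26), a difference far smaller than the spread of cells. Pdhb was lower in neighboring cells in 8 of 8 sets, by −1.50 to −0.18. Of the other enzymes from aldolase to enolase, Aldoa was higher in neighboring cells in 6 of 8 sets and Tpi1, Gapdh, Pgam1 and Eno1 in 5 of 8. Aldoa (−1.49) and Tpi1 (−2.19) were lower in neighboring cells of SMART-Seq v4, and Pgam1 (−1.29) in dissociated ones. Within the DRaqL-SC3-seq set, cells fell into earlier and later label numbers, and the difference of Ldha was 1.25 and 2.24 and that of Pgk1 0.06 and 2.36 in these runs of numbers.

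The members higher and lower in neighboring cells were 3 and 1 of 15 in DRaqL-SC3-seq (6.28% and 17.4% of all genes), 2 and 3 of 14 in SMART-Seq v4 (13.5% and 21.3%), and 7 and 3 of 21 with DRaqL (11.4% and 17.7%). They were 12 and 0 of 23 after formalin (23.1% and 12.6%), 6 and 0 of 19 in LCM cells of the proestrus mouse (9.72% and 13.1%), and 9 and 2 of 21 both in LCM-seq (20.5% and 7.8%) and in DRaqL-Smart-seq2 (14.5% and 7.43%). In dissociated cells they were 1 and 8 of 21 (3.62% and 53%), a smaller share of the members than of all genes being lower, and the median difference was −0.50 over the members and −1.09 over all genes.

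Pools of 10 granulosa cells allowed a test, with 7 neighboring and 7 non-neighboring libraries. Pools of the same number were not treated as pairs in it. By edgeR's quasi-likelihood test, none of the 26 members tested passed an adjusted p of 0.05, among 0.453% of all genes higher and 0.0% lower. DESeq2 called none either. At an unadjusted p under 0.05, 6 members were higher in neighboring pools and 0 lower by edgeR (2.52% and 1.62% of all genes), and DESeq2 gave 6 such members as well. All 6 act from aldolase to lactate dehydrogenase.

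Ldha was at 106.2, 546 and 1538 RPM (lowest, median and highest) in neighboring and 40.3, 187 and 262 RPM in non-neighboring pools. Its log2 fold change was 2.15 (SE 0.61), with p = 0.0023 and an adjusted p of 0.255 by edgeR. Tpi1, triosephosphate isomerase, was at 145, 522 and 1359 against 35.3, 187 and 383 RPM, with a log2 fold change of 1.86 (SE 0.56) and an adjusted p of 0.324. In both, some neighboring pools stood above every non-neighboring pool and others lay within their range. Eno1 (1.47, SE 0.54), Aldoa, fructose-bisphosphate aldolase (1.52, SE 0.57), Pkm (1.14, SE 0.43) and Pgk1 (1.02, SE 0.46) had adjusted p-values of 0.838, 0.866, 0.869 and 0.998. The ranges of all 6 overlapped between the groups. Without neighboring replicate 6, 2 members in place of 6 had an unadjusted p under 0.05, and leaving out other pools gave 5 or 6. Ldhb was at 500, 1077 and 2672 against 279, 673 and 1203 RPM, with a log2 fold change of 0.56 (SE 0.37) and an adjusted p of 0.998. Gapdh (0.27, SE 0.51) and Pgam1 (0.03, SE 0.40), of the same pathway, lay near 0.

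The summed level of the members was 8037 ± 3860 RPM in neighboring and 4061 ± 1169 RPM in non-neighboring pools, a ratio of 1.98, and 2.05 without Ldhb. The oocyte markers were at 856, 1582 and 8865 RPM in neighboring and at 2.34, 66.4 and 151 RPM in non-neighboring pools, with no marker at 0 throughout either group. The 5 theca and interstitial markers were at 0 to 231 and 0 to 911 RPM, and the 3 hemoglobin genes at 0 in every neighboring pool and at up to 2078 RPM in a non-neighboring one. The part of these cells in the differences was not tested, and fewer cells of a type cannot be told apart from less RNA per cell. On simulated counts shaped like the pools, 3 of 67 genes changed 4-fold and 7 of 67 changed 8-fold were called, so that the lack of calls bounds little. None of the 50 other genes passed.

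**Figure D5:**
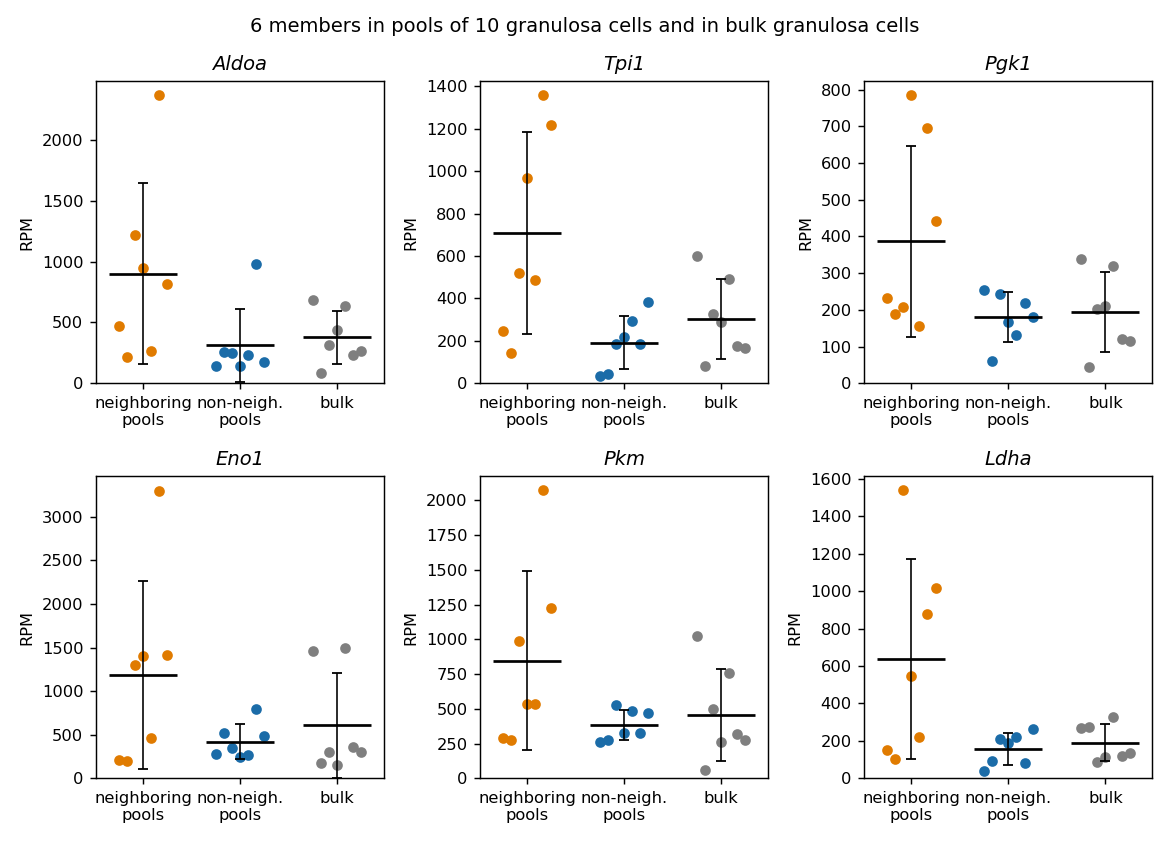
RPM of the 6 members with an unadjusted p under 0.05 (panels) in each neighboring and non-neighboring pool of 10 granulosa cells (points, n = 7 each), with the line at the mean and bars of 1 SD. Ldha reaches 1538 RPM in neighboring and 262 RPM in non-neighboring pools, and the groups overlap in every panel.

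Bulk granulosa samples, the whole granulosa of single follicles, of which 4 were early antral, were set against both kinds of pools, and labels did not give the stage of the others. None of 31 members passed an adjusted p of 0.05 in edgeR, with 0.101% of all genes higher and 0.0% lower. At an unadjusted p under 0.05, 0 members were higher and 2 lower in bulk (3.51% and 2.73% of all genes). DESeq2 called none at an adjusted p of 0.05, and 2 higher and 2 lower without adjustment. The 2 lower by edgeR were Slc2a3 (log2 fold change −1.30, SE 0.50) and Pgam1 (−0.87, SE 0.34), both with an adjusted p of 0.552. Slc2a3 was at 8.28, 44.9 and 58.4 RPM in bulk and at medians of 83.7 and 94.8 RPM in the pools.

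The mESCs were higher than oocytes and than granulosa cells in most of the members tested. Against DRaqL-SC3-seq oocytes, LCM mESCs were higher in 15 of 26 members (18.0% of all genes) and lower in 4 (51.5%). The median difference was 1.25 for the members and −1.10 for all genes. Ldha (7.71), Slc2a3 (6.29), Pgam1 (4.98), Hk2 (4.80), Eno1 (4.69), Pfkp (4.53), Aldoa (3.95) and Pgk1 (3.89) led, and Pfkfb3 (−3.08), Slc16a1 (−1.93), Ldhb (−1.32) and Pdk3 (−1.07) were lower. The difference of Pdk3 was 0.075 as a log2 ratio of mean RPM. Against granulosa cells, 20 of 22 members were higher (60.4%) and 1 lower (12.0%), the latter again Slc16a1 (−3.11). Pdha1 (5.84), Slc2a1 (5.48), Pfkp (5.43), Hk2 (5.03) and Pgk1 (4.73) led. These levels stand across 2 tables, which were made by the same method, except that the paper names a separate PCR program for oocytes.

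Hk2 and Pfkp gave most of the reads of their families in mESCs. Hk2 gave 82.8% of Hk1 and Hk2 reads in fresh and 80.9% in LCM mESCs, against 0.837% in oocytes of primary and 24.9% in those of secondary-antral follicles and 17.1% in granulosa cells of DRaqL-SC3-seq. In granulosa cells of the other sets the Hk2 share of summed reads ran from 27.6 to 83.5%, reaching that of mESCs. Pfkp gave 86.3% and 81.4% of phosphofructokinase reads in mESCs, 26.01% in DRaqL-SC3-seq oocytes and 47.8% in its granulosa cells. Slc2a1 took 13.6 ± 8.83% of glucose transporter reads (n = 81), near the granulosa cells of the DRaqL-SC3-seq set, with Slc2a3 itself at 9.42 and 9.41 on the log2(RPM+1) scale. Among the pyruvate dehydrogenase kinases, Pdk1 took 52.7% and 48.2% and Pdk3 46.7% and 49.2%. Of the other genes, Bpgm (−8.80), Ldhd (−5.06) and Slc16a10 (−4.39) were the lowest against oocytes, and Pgd (2.26), Pdp2 (2.03) and Pck2 (1.88) the highest.

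Fresh and LCM mESCs differed in few members. Pfkl, the liver-type phosphofructokinase, was higher in LCM cells by 1.40, and Slc16a1 lower by −1.24, of 25 tested (0.835% and 9.53% of all genes). Pfkl was at 3.35 ± 1.80 in fresh and 4.75 ± 1.79 in LCM cells on the log2(RPM+1) scale, a difference smaller than the SD over cells. Among the others, Mpc1 (−1.38), Gpd2 (−1.29) and Tkt (−1.28) were lower in LCM cells.

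Reads on the Pkm exons shown above came from 5 oocytes and 10 mESCs sequenced along whole cDNAs. The fresh and LCM labels of these mESC libraries went against the gene tables. Over 8298 genes, the deviations of each of the 10 from their mean correlated best with a mESC library of the opposite label, at r = 0.724 to 0.823, and with no other of the 81 above 0.173. The libraries are therefore named by their labels, and no difference between fresh and LCM cells is drawn from them. The PKM2 exon carried most of them in every cell. In the 5 oocytes the PKM1 exon took 0, 33.3, 0, 30.8 and 0% of the pair's reads, a mean of 12.8 ± 17.6% (SD) over only 19 to 66 reads per cell. Exact 95% Clopper-Pearson intervals were 22.2 to 46.01% and 14.3 to 51.8% in the cells with PKM1 reads, and counts of 0, by the rule of 3 reads over the pair's total, allowed shares of up to 15.8, 12.0 and 7.69%. These cover counting error only. In mESCs labelled fresh it took 0, 11.3, 10.1, 11.4 and 0%, and in those labelled LCM 4.72, 0.135, 0.463, 4.72 and 7.67%, over 210 to 1249 reads. The mean over all 10 mESCs was 5.06 ± 4.82%. The means of oocytes and mESCs differed by less than the SD over oocytes.

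The pair of ovaries from the proestrus mouse compared capture from sections with dissociation. In oocytes, 2 of 19 members were higher in LCM cells (20.3% of all genes), Pfkfb3 (2.23) and Gpi1 (1.32), and 4 were lower (19.4%), Pdhb (−2.98), Dlat (−1.64), Slc16a1 (−1.61) and Pfkfb2 (−1.25). In granulosa cells 0 of 19 were higher (25.1%) and 15 lower (34.0%). The latter included Tpi1 (−4.85), Eno1 (−4.52), Ldha (−4.35), Pgk1 (−4.09), Slc16a1 (−3.17), Pkm (−2.46), Pgam1 (−2.40) and Aldoa (−2.25). The median difference was −1.80 over the members and −0.24 over all genes. As a log2 ratio of mean RPM the difference of Tpi1 was −1.33. Ldha was at 0, 53.6 and 734 RPM in LCM and 19.2, 960 and 4483 RPM in dissociated granulosa cells. Capture, the lysis, the amplification, follicle stage and the cAMP analog differed together here and cannot be told apart.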

How the data were processed

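The authors deposited gene counts, made per their methods and processing notes with cutadapt 1.16, fastp 0.20.0, HISAT2 2.1.0 and HTSeq 0.10.0 on GRCm38 from reads within 10 kb of 3′ ends, and exon and junction counts from featureCounts 2.0.1. From the counts, RPM were computed over 22060 protein-coding genes, then log2(RPM+1), with a pseudocount of 1. Differences are between means over cells, called at 1 where the mean level was at least 2. Pools and bulk samples were tested with edgeR 4.0.16 (R 4.3.3, TMM, filterByExpr, quasi-likelihood F-test, Benjamini-Hochberg over all protein-coding genes tested). DESeq2 1.42.0 was an alternative, as were other pseudocounts, filters, scalings, thinning to equal depth, leaving out libraries and the replicate block. The scripts were tested on simulated data. Pool libraries held 3811945 to 8259281 reads, single-cell libraries fewer, and precision follows these counts. Promoter sequences were from RefSeq, exons from GENCODE. Members and lists were chosen with earlier results of these data known. All 35 members could be named, and of the 50 other genes those passing the pool test or, without a test, the 3 with the largest called difference in each direction.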

Additional observations from a re-analysis of the deposited data

Results flagged for a closer look

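Dixon's criterion was applied to 39 groups: levels of named members in 7 pools or bulk samples each, and PKM1 exon shares in groups of 5 cells. In 9 of them, all of pools or bulk samples, a highest or lowest library stood apart from the rest. For independent, normal values chance gives about 1 in 20, but these genes share libraries. Neighboring pools gave 3 of these: Slc2a3 at 218 RPM in replicate 7, Eno1 at 3299 RPM in replicate 6 and Pdk3 at 34.8 RPM in replicate 5. Non-neighboring pools gave 4: Aldoa at 978 RPM and Pgam1 at 486 RPM, both in replicate 6, Pdha1 at 70.3 RPM in replicate 1 and Pdk3 at 52.8 RPM in replicate 3. In bulk samples, replicate 2 was lowest for Slc2a1, at 0.207 RPM, and highest for Pdha1, at 58.6 RPM.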

How the results depend on the processing

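The members called in all 6 sets as higher in oocytes than in granulosa cells were 5, but 3 with a pseudocount of 10 and 2 by the log2 ratio of mean RPM, and those higher in granulosa cells were 0, but 4 by that ratio and 1 after thinning to equal depth. ERCC scaling gave 22 in place of 6 in its 3 sets, by construction, since it counts the RNA per captured piece. Members higher at the secondary-antral stage in all 4 sets were 2, but 0 with a pseudocount of 10 and 1 by the ratio, with TMM scaling, after thinning or, added after the data were seen, with a mean level of 2 in every set. Those higher at the primary stage were 1, but 0, 3 and 2 with a pseudocount of 10, by the ratio and after thinning. In DRaqL-SC3-seq the later-stage count of 3 was 1 with a pseudocount of 10 or by the ratio, and the primary count of 7 was 4 with a pseudocount of 10. After formalin, leaving out single primary oocytes gave 5 to 8 higher and 6 to 9 lower at the later stage. By position in DRaqL-SC3-seq, the 3 higher in neighboring cells were 1 with a pseudocount of 10 and 6 in the later-numbered cells, and the 1 higher in non-neighboring cells was 0 with a pseudocount of 10, by the ratio or without cells rich in oocyte markers, 4 in earlier-numbered and 3 in later-numbered cells. In mESCs the 1 higher in LCM cells was 0 with a pseudocount of 10, and the 1 higher in fresh cells 0 with a pseudocount of 10 or after thinning. Against oocytes, the 4 lower in mESCs were 2 with a pseudocount of 10 or TMM scaling. For LCM against dissociated oocytes, the 2 higher were 0 with a pseudocount of 10 and 1 by the ratio, and for granulosa cells the 0 higher were 1 without the limit on low levels. Shares of all genes with the other pseudocount, by the ratio, with TMM scaling or after thinning are not given here. These counts therefore do not set the members apart from other genes. The cause of the changes in counts was not tested.

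By the log2 ratio of mean RPM the sign turned for Pfkm (−0.80), Pfkfb4 (−0.15), Pdhb (−0.59) and Pdk1 (−0.69) in oocytes against granulosa cells, for Pdk3 (0.075) in mESCs against oocytes, and for Pfkm (−0.19), Pfkfb2 (−0.22), Aldoc (−1.17), Tpi1 (−0.63) and Pdhb (−0.43) in mESCs against granulosa cells. Without Ldhb, the ratio of summed RPM by position in SMART-Seq v4 was 0.960. A further 26 differences of single members moved past the limits set without a turn of sign. Of the remaining values, 564 for single members and 225 for counts and shares moved less than these limits.

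Whether the pool number marks a pairing was not settled. The correlation of same-numbered pools was low, at 0.008 to 0.241 and over 0.1 in 1 of 7 pairs, but 5 of 7 pools correlated best with their own number. With the pool number as a block, 0 members passed, 4 had an unadjusted p under 0.05, the lowest adjusted p was 0.0547 (edgeR), and 3 of all genes passed in place of 44. Over single pools left out, 3 (without neighboring pool 5) to 56 of all genes passed, and with DESeq2 408 did. The lowest adjusted p over single pools left out was 0.0901 to 0.474, and it was 0.0564 with DESeq2, 0.510 with upper-quartile scaling and 0.144 with no filter. The log2 fold change of Ldha ranged from 1.54 to 2.35 over single pools left out, that of Tpi1 from 1.65 to 2.09, of Aldoa from 1.13 to 2.19, of Eno1 from 1.04 to 1.72, of Pkm from 0.79 to 1.31 and of Pgk1 from 0.74 to 1.20, and the counts passing an adjusted p stayed at 0 in pools and bulk. In bulk, Slc2a3 ranged from −1.41 to −1.11 and Pgam1 from −0.99 to −0.73. The PKM1 share ranged from 7.69 to 16.03% in oocytes, 5.36 to 8.22% in mESCs labelled fresh and 2.51 to 4.39% in those labelled LCM, whose labels are in doubt, over single cells left out. Leaving out cells rich in oocyte markers could not be applied to LCM-seq and DRaqL-Smart-seq2, which held no oocytes, and junction reads were used for mESCs alone. Depth limits what is read at few counts, such as the Pkm exons of oocytes, with 19 to 66 reads per cell.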

Other observations

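A table of 3 granulosa cells with a mixed profile was left out of the comparisons above. Its neighboring cell had an Ldha share of 0.745% of Ldha and Ldhb reads, Ldhb at 3411 RPM and the oocyte markers at 11803 RPM. Its pair of non-neighboring cells had Ldha shares of 35.9% and 42.6% and oocyte markers at 1487 and 2949 RPM.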
